A study of Mus musculus with 12 samples.

Results

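Genes that mark position along the body and the limbs were followed across WT and Nox4 KO mouse skin fibroblasts, cultured with or without TGF-β2. They were Pitx1, Tbx2, Tbx3, Tbx4, Tbx5, Tbx15, Tbx18, Emx2 and Shox2, taken by name as 9 rows of a count table of 21556 genes. The cells were primary fibroblasts from abdominal skin. WT cells came from C57BL/6 mice and Nox4 KO cells from B6.129-Nox4tm1Kkr/J mice, in which the Nox4 gene was targeted. The genotypes were bred as separate litters, so genotype and litter cannot be told apart. All cells were starved before stimulation, and TGF-β2 was given at 10 ng/ml for 24 h, while controls received none. RNA was sequenced from 12 libraries, 3 in each of the groups WT control, WT with TGF-β2, Nox4 KO control and Nox4 KO with TGF-β2. The series calls the replicates biological, but nothing states that they came from separate animals, and the p-values measure only the spread between these libraries. The study asked what Nox4, an NADPH oxidase that TGF-β induces, contributes to the response of skin fibroblasts.

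T-box genes encode transcription factors that bind DNA through a shared domain, and each is active in a part of the embryo. Tbx5 is needed for the forelimb, Tbx4 and the homeobox gene Pitx1 for the hindlimb, and Tbx15 for the dermis and skeleton of the trunk. Tbx2 and Tbx3 act mainly as repressors, and Tbx18 is known from somites, heart and hair follicle mesenchyme. Emx2 and Shox2 are homeobox genes, the former of the forebrain, urogenital tract and shoulder blade, the latter of the proximal limb and the cardiac pacemaker. Fibroblasts in culture are known to keep part of the expression of such genes that their site of origin had.

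Each library held between 35118344 and 43796260 counted reads. All 7 fibroblast markers examined, among them Col1a1, Pdgfra and Twist2, had a mean of at least 1 RPKM (reads per kilobase of exon, scaled to the library total). None of 5 keratinocyte markers did. Of the other lists, 3 of 5 macrophage markers, 1 of 5 endothelial markers, 1 of 5 adipocyte markers, 4 of 5 smooth muscle and pericyte markers, 1 of 5 skeletal muscle markers and 0 of 5 Schwann cell and melanocyte markers reached this level. Nox4 was counted in all libraries, at 1.31 to 2.42 RPKM in WT control, 8.56 to 16.3 in WT with TGF-β2, 0.636 to 1.4 in Nox4 KO control and 4.39 to 6.85 in Nox4 KO with TGF-β2. The WT and Nox4 KO ranges overlapped in control only, and gene-level counting leaves the exons of origin unknown.

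The genes lie on 6 chromosomes of the GRCm38 build, with 2 close pairs. Tbx2 (ENSMUSG00000000093, chromosome 11, 85832551 to 85841948) and Tbx4 (ENSMUSG00000000094, 85886422 to 85916097), both on the plus strand, are separated by 44.5 kb. Tbx3 (ENSMUSG00000018604, chromosome 5, 119670669 to 119684724) and Tbx5 (ENSMUSG00000018263, 119832668 to 119885219), also on the plus strand, are separated by 148 kb. Tbx15 (ENSMUSG00000027868, 99240381 to 99354259, plus strand) and Shox2 (ENSMUSG00000027833, 66971727 to 66981771, minus strand) share chromosome 3 at a distance of 32.3 Mb. Pitx1 is on chromosome 13 (ENSMUSG00000021506, 55825051 to 55836192, minus strand), Tbx18 on chromosome 9 (ENSMUSG00000032419, 87702800 to 87731260, minus strand) and Emx2 on chromosome 19 (ENSMUSG00000043969, 59458372 to 59465357, plus strand). Nox4 is on another chromosome than all of them. Exons of 5 of the 9 genes overlap exons of a neighbouring annotated gene, by 153 bases for Shox2 and Rsrc1, 115 for Tbx3 and Tbx3os1, 264 for Emx2 and Emx2os, and 931 for Tbx18 and D030062O11Rik. For Pitx1 the overlaps are 165 bases with Gm47071 and 108 with Gm28760. It is not stated whether the counting used the strand, so reads of overlapping genes may not have been separated. Rsrc1 was the only one of these neighbours in the count table.

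RefSeq promoter windows were at hand for 4 of the 9 genes, Tbx4, Tbx18, Emx2 and Shox2, on GRCm38.p6. The RefSeq start of Tbx4 lies inside the gene span given above. Below are the 250 bases before the start of Shox2 (chr3:66981772-66982021, minus strand), whose transcript fell with TGF-β2, and of Tbx18 (chr9:87731261-87731510, minus strand), whose change did not pass the test. The Shox2 stretch lies in an intron of Rsrc1, and the Tbx18 stretch in the span of D030062O11Rik. Capitals mark any of the 6 motifs searched, as spelled in the next paragraph. Both are read 5′ to 3′ on the strand of the gene.
Shox2: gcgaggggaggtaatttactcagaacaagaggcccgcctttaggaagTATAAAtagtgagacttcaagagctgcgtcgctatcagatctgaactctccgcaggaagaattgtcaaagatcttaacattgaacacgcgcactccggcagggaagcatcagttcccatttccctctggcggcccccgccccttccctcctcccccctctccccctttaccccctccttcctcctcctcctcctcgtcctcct
Tbx18: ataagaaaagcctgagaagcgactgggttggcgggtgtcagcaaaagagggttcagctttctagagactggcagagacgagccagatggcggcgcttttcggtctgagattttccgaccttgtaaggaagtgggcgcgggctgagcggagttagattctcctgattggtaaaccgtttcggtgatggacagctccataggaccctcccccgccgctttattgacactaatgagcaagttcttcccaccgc

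In Shox2 the letters TATAAA begin 203 bases before the start, on the strand of the gene. None of the 6 motifs was found in the Tbx18 stretch. Both strands were searched, in windows of 250 bases before to 50 after the start. AGGTGTGA, a T-box site, was in none of the 4 windows and in 1.28% of all 32851. TAATCC, bound by Pitx-type homeodomains, was in none of the 4 and in 7.06% of all. TAATTA, a general homeodomain site, was in the Emx2 window and in 5.29% of all. Of the SMAD-type sites, GTCTAGAC was in none of the 4 and in 0.213% of all, while GGCGCC was in the Emx2 window and in 11.9% of all. TATAAA was in the Tbx4 and Shox2 windows and in 13.6% of all. No motif searched contains another, and a match describes the sequence only.

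In unstimulated WT fibroblasts, Tbx15 stood far above the other 8 genes. Its level was 34.7 ± 2.26 RPKM (SD, n = 3), and Shox2 followed at 10.9 ± 1.83, Emx2 at 9.75 ± 0.842, Tbx5 at 5.38 ± 0.922, Tbx3 at 4.18 ± 0.555 and Tbx18 at 3.90 ± 0.425. Tbx2 (0.446 ± 0.167), Pitx1 (0.321 ± 0.199) and Tbx4 (0.144 ± 0.0898) were below 1 RPKM. The ranges of neighbours in this order overlapped between Shox2 and Emx2, between Tbx5, Tbx3 and Tbx18, and between Tbx2, Pitx1 and Tbx4, so these orders are within the spread of the libraries. Tbx15 lay above 88.2% of the 17521 genes with any read over the 12 libraries, Emx2 above 70.1%, Tbx3 above 55.6% and Tbx4 above 29.2%. The forelimb gene Tbx5 was measured well above both hindlimb genes in these abdominal cells. Tbx4 rested on 7 to 34 reads per library and Pitx1 on 20 to 155, while Tbx15 had 2975 to 5324. In the smallest library, 3 reads would give 0.0251 RPKM for Tbx4 and 0.0322 for Pitx1, a limit of counting error only.

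The order was nearly the same in the other groups. In Nox4 KO control, Tbx15 stood at 31.1 ± 6.39 RPKM (SD, n = 3), Shox2 at 12.1 ± 3.03, Emx2 at 9.02 ± 1.78, Tbx5 at 5.27 ± 0.974, Tbx3 at 4.45 ± 0.124 and Tbx18 at 3.60 ± 0.902. Pitx1 (1.30 ± 0.284) was above Tbx2 (0.689 ± 0.104) and Tbx4 (0.199 ± 0.0957) there, without overlap. With TGF-β2, Emx2 was above Shox2 in both genotypes, at 10.8 ± 0.622 against 5.53 ± 1.09 in WT and at 9.52 ± 0.830 against 5.75 ± 1.75 in Nox4 KO. Tbx5 came sixth in both stimulated groups, at 2.06 ± 0.16 and 2.19 ± 0.501. In stimulated Nox4 KO cells the ranges of Shox2, Tbx3, Tbx18 and Tbx5 overlapped from each gene to the next, as did those of Tbx2 and Tbx4.

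**Figure D1:**
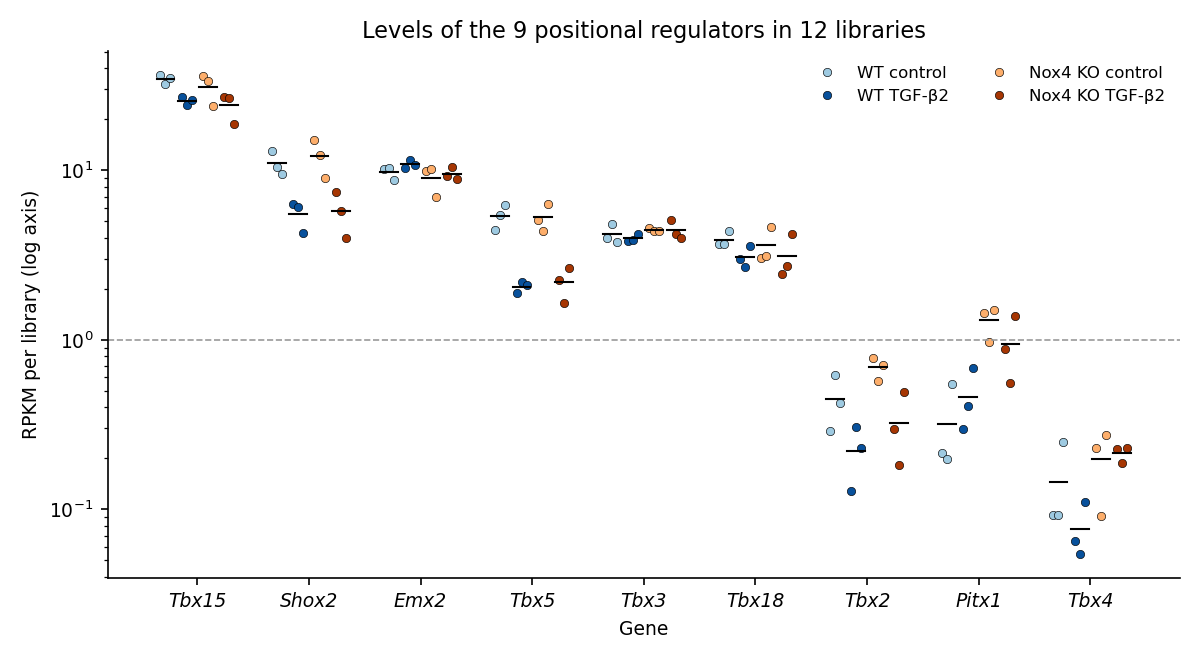
RPKM of the 9 genes in each library on a log axis, ordered by their mean in WT control, with 1 point per library, a bar at the group mean and a dashed line at 1 RPKM. Tbx15 is highest in all 4 groups, and Tbx2 and Tbx4 stay under the line throughout.

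TGF-β2 lowered Tbx5 in both genotypes, and Shox2 with it. In WT control the Tbx5 level was 4.43, 5.43 and 6.27 RPKM, and with TGF-β2 it was 1.88, 2.18 and 2.11. In Nox4 KO control it was 5.11, 4.38 and 6.31, and with TGF-β2 it was 2.26, 1.65 and 2.64. All stimulated libraries were below all control libraries in both genotypes. The log2 fold change of Tbx5 was -1.34 (SE 0.14, adjusted p = 0.00157, edgeR) in WT, which left 39.4% of the control level. In Nox4 KO it was -1.18 (SE 0.20, adjusted p = 0.0104, edgeR), which left 44.1%. Tbx5 was the only one of the 9 genes called in WT, where a call is an adjusted p under 0.05 and a change of at least 2-fold. Of the genes tested in WT, 5.09% were called lower, and of the 9 genes 6 passed the filter of 1 RPKM and were tested. Tbx5 was also the only one called in Nox4 KO, of 7 tested, against 4.58% of all genes tested there called lower. It was called in 6 of 6 fits that left out 1 library, in each genotype, with a log2 change between -1.46 and -1.22 in WT and between -1.33 and -1.02 in Nox4 KO.

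Shox2, the homeobox gene of the proximal limb, fell to close to 50% of its control level in each genotype. Its WT control levels were 13.0, 10.4 and 9.48 RPKM, against 6.29, 6.03 and 4.28 with TGF-β2. The Nox4 KO levels were 15.1, 12.3 and 9.06 in control, against 7.48, 5.77 and 3.99 with TGF-β2. The groups did not overlap in either genotype. The log2 fold change was -0.95 (SE 0.20, adjusted p = 0.0167, edgeR) in WT and -1.0 (SE 0.28, adjusted p = 0.0438, edgeR) in Nox4 KO, where 50.2% of the control level remained, so that Shox2 passed the test in both but missed the 2-fold limit. With the replicate number as a block, which pairs the Nox4 KO libraries, the Nox4 KO value was -1.01 (SE 0.06, adjusted p = 0.000273, edgeR) and Shox2 was called. Leaving out 1 library gave an adjusted p of up to 0.0525 in WT, without control replicate 1, and of up to 0.131 in Nox4 KO, without TGF-β2 replicate 2. It stayed under 0.05 in 4 of 6 such WT fits and in 2 of 6 Nox4 KO fits. Rsrc1, which shares 153 exon bases with Shox2 on the other strand, had a log2 fold change of -0.49 (SE 0.08, adjusted p = 0.00712, edgeR) in WT and -0.39 (SE 0.07, adjusted p = 0.0144, edgeR) in Nox4 KO. Its part in the Shox2 counts was not tested.

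Tbx15, the most abundant of the genes, was lower with TGF-β2 by a smaller amount. It stood at 36.6, 32.2 and 35.2 RPKM in WT control and at 26.9, 24.2 and 25.8 with TGF-β2, without overlap. The Nox4 KO values were 35.9, 33.7 and 23.9 in control and 27.2, 26.8 and 18.8 with TGF-β2. Here the groups overlapped because control replicate 3 lay below TGF-β2 replicates 1 and 2. Replicate 3 was the lowest in both groups. The log2 fold change was -0.40 in WT (SE 0.10, adjusted p = 0.029, edgeR) and -0.28 in Nox4 KO (SE 0.21, adjusted p = 0.36, edgeR). With the replicate block, the Nox4 KO value was -0.27 (SE 0.04, adjusted p = 0.00504, edgeR), past the threshold. In WT the result was less firm, as the adjusted p stayed under 0.05 in only 1 of 6 fits that left out a library and reached 0.123 without control replicate 1. With any fold change allowed, 3 of the 6 tested genes (Tbx5, Shox2 and Tbx15) were lower in WT, against 12.2% of all genes tested, and 2 of 7 (Tbx5 and Shox2) were lower in Nox4 KO, against 14.9%.

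Tbx18, Tbx3 and Emx2 did not pass the test in either genotype. Tbx18 was at 3.65, 3.67 and 4.39 RPKM in WT control and at 3.00, 2.70 and 3.56 with TGF-β2, without overlap, and its log2 fold change was -0.30 (SE 0.14, adjusted p = 0.17, edgeR). In Nox4 KO it was at 3.02, 3.14 and 4.64 in control and 2.44, 2.71 and 4.23 with TGF-β2, a log2 difference of -0.12 (SE 0.25, adjusted p = 0.754, edgeR). Tbx3, the neighbour of Tbx5, had 3.76 to 4.81 RPKM in WT control and 3.83 to 4.21 with TGF-β2, and 4.37 to 4.59 and 4.01 to 5.08 in Nox4 KO. Its log2 values were -0.04 (SE 0.13) and 0.08 (SE 0.11), and the sign changed in each genotype when single libraries were left out. Emx2 had 8.78 to 10.3 RPKM in WT control and 10.3 to 11.5 with TGF-β2, with a log2 value of 0.19 (SE 0.11, adjusted p = 0.246, edgeR). In Nox4 KO the Emx2 ranges were 6.98 to 10.2 and 8.85 to 10.4, with a log2 value of 0.16 (SE 0.17, adjusted p = 0.507, edgeR).

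**Figure D2:**
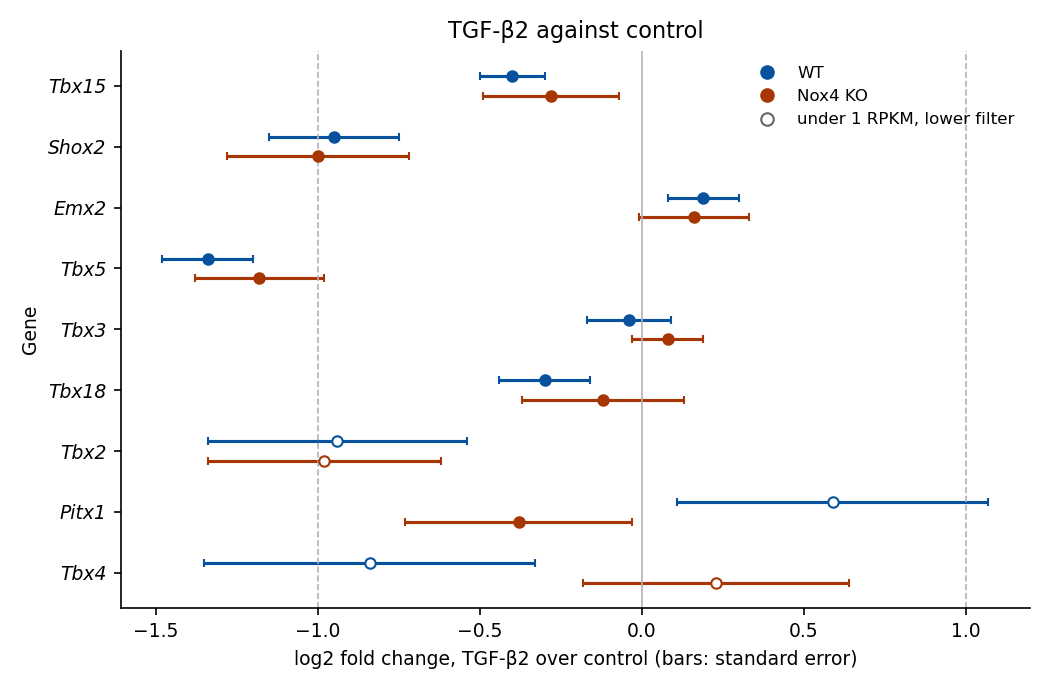
Log2 fold change of TGF-β2 over control for each gene in WT and Nox4 KO, with bars of 1 standard error and dashed lines at a 2-fold change. Filled points were tested at 1 RPKM or more, open points come from the fit with edgeR's own, lower filter. Tbx5 lies past the 2-fold line at -1.34 in WT and -1.18 in Nox4 KO, and Shox2 at -0.95 and -1.0.

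The genes at low level were tested in other ways. Tbx2, a repressor related to Tbx3, was at 0.291, 0.622 and 0.424 RPKM in WT control and 0.129, 0.307 and 0.230 with TGF-β2, where the groups overlapped by 1 library. In Nox4 KO it was at 0.778, 0.575 and 0.713 in control and 0.296, 0.183 and 0.491 with TGF-β2, without overlap. A two-sided exact permutation test of log2(CPM + 0.5), with CPM the counts scaled to library size, gave p = 0.2 in WT and 0.1 in Nox4 KO, and 0.1 is the smallest p that 3 libraries against 3 allow. With edgeR's own filter for low counts, the log2 values of Tbx2 were -0.94 (SE 0.40, adjusted p = 0.137) and -0.98 (SE 0.36, adjusted p = 0.0879). Tbx4 was at 0.0921, 0.0925 and 0.248 RPKM in WT control and 0.0649, 0.0546 and 0.111 with TGF-β2, and its exact p was 0.3. In Nox4 KO it was at 0.230, 0.0916 and 0.275 in control and 0.226, 0.188 and 0.230 with TGF-β2, with an exact p of 1. Pitx1 was at 0.214, 0.197 and 0.551 RPKM in WT control and 0.296, 0.409 and 0.678 with TGF-β2 (exact permutation p = 0.4). In Nox4 KO, where it passed the filter, it was at 1.44, 0.974 and 1.49 in control and 0.878, 0.559 and 1.38 with TGF-β2, and its log2 value was -0.38 (SE 0.35, adjusted p = 0.436, edgeR). The Tbx4 values rest on 7 to 34 reads per library. Counting all 9 genes, the stimulated libraries were below all control libraries for 4 genes in WT (Tbx5, Shox2, Tbx15 and Tbx18), against 26.2% of the genes passing edgeR's filter, and for 3 in Nox4 KO (Tbx5, Shox2 and Tbx2), against 31.8%.

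Summed levels of marker genes of each cell type were compared between control and TGF-β2. The summed level of the 5 adipocyte markers was 2.88 to 5.58 RPKM in WT control and 0.524 to 1.21 with TGF-β2, without overlap. In Nox4 KO it was 0.660 to 3.93 and 0.180 to 0.707, with overlap. Plin1, Lep and Cidec were under 0.1 RPKM in all libraries. The 5 macrophage markers summed to 4.67 to 16.0 and 3.02 to 10.1 in WT, and to 3.39 to 11.8 and 2.21 to 7.57 in Nox4 KO, with overlap in both. The 5 endothelial markers summed to 2.53 to 4.29 and 1.68 to 2.45 in WT and to 3.04 to 5.54 and 2.42 to 2.94 in Nox4 KO, without overlap. The 5 smooth muscle and pericyte markers summed to 47.6 to 62.0 and 40.1 to 59.4 in WT, with overlap. In Nox4 KO their sums were 61.0 to 64.1 and 62.0 to 80.1, also with overlap. The Schwann cell and melanocyte sums overlapped in WT, but not in Nox4 KO, at 0.859 to 1.29 and 0.629 to 0.71. Keratinocyte and skeletal muscle sums overlapped in both genotypes. The 7 fibroblast markers themselves summed to 4810 to 5460 RPKM in WT control and 3560 to 4700 with TGF-β2, without overlap, and to 4630 to 6220 and 3930 to 5050 in Nox4 KO, with overlap. Their part in the changes of the positional genes was not tested. In bulk RNA, fewer cells of a type and less RNA per cell cannot be told apart.

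Ratios between the genes were compared next. The ratio of Tbx5 to Tbx3 per length was 1.11 to 1.67 in WT control and 0.491 to 0.560 with TGF-β2, and 0.999 to 1.44 and 0.391 to 0.659 in Nox4 KO. Emx2 was below Shox2 in all control libraries, at ratios of 0.783 to 0.994 in WT and 0.652 to 0.834 in Nox4 KO, and above it in all stimulated libraries, at 1.63 to 2.50 and 1.24 to 2.22. The ratio of Shox2 to Tbx15 went from 0.269 to 0.355 down to 0.166 to 0.249 in WT, and from 0.364 to 0.421 down to 0.212 to 0.275 in Nox4 KO. That of Tbx15 to Tbx18 overlapped between control and TGF-β2 in both genotypes. The 4 pairs of genes were picked after their values had been seen. In 8 exact permutation tests, the 6 of the first 3 ratios were at p = 0.1 (adjusted p = 0.133), which is the smallest possible, and the other two at p = 0.6.

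Between the genotypes, no gene of the 9 was called in the main fits. In control, 10.1% of the genes passing edgeR's filter were higher in Nox4 KO without overlap, as was 1 of the 9 genes, Pitx1. Its 3 Nox4 KO control libraries, at 0.974 to 1.49 RPKM, were above all WT control libraries, at 0.197 to 0.551, with group means of 1.30 ± 0.284 and 0.321 ± 0.199 (SD, n = 3). In counts, 20, 20 and 59 reads stood behind the WT values, against 146, 108 and 144 in Nox4 KO. Pitx1 passed the filter of 1 RPKM in this comparison only through Nox4 KO control, where it was higher, so the difference itself decided its testing. The log2 fold change was 1.97 (SE 0.41), with an unadjusted p of 0.00265 and an adjusted p of 0.828 in edgeR's test. It ranged from 1.73 to 2.59 when 1 library was left out, and the adjusted p was 0.523 or more in each case. Of all 10767 genes tested, 0% passed edgeR's test at any fold change, although 597 had an unadjusted p under 0.05. In the fit with edgeR's own filter for low counts, Pitx1 had a log2 value of 1.98 (SE 0.42, adjusted p = 0.858). DESeq2, with the filter of 1 RPKM, gave an adjusted p of 0.0215 for Pitx1 (log2 1.99, SE 0.48) and called it, a call that depends on that filter. It called 5 genes higher in all, or 0.0464% of those tested.

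The other 6 genes tested differed little between Nox4 KO and WT control. Their log2 values lay between -0.19 (Tbx15, SE 0.16) and 0.11 (Shox2, SE 0.22). The ranges of the groups overlapped for 8 of the 9 genes, and Pitx1 was the single gene higher without overlap, against 10.1% of the genes passing edgeR's filter. A count of 1 in 9 is close to this share. The median log2 value of the 7 tested genes was -0.07, beside 0.00 for all genes tested. Tbx2 was at 0.291 to 0.622 RPKM in WT and 0.575 to 0.778 in Nox4 KO (exact permutation p = 0.2), and Tbx4 at 0.0921 to 0.248 and 0.0916 to 0.275 (exact permutation p = 0.7). The 5 smooth muscle and pericyte markers summed to 47.6 to 62.0 RPKM in WT control and 61.0 to 64.1 in Nox4 KO control, and their part in the Pitx1 difference was not tested. The 5 skeletal muscle markers summed to 1.06 to 6.41 RPKM in WT control and 2.52 to 7.99 in Nox4 KO control, with Myod1, Myf5, Myh3 and Ckm under 0.1 RPKM in all libraries and Des at a mean of at least 1 RPKM.

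After TGF-β2, the genotypes overlapped for Pitx1, which was at 0.296, 0.409 and 0.678 RPKM in WT and 0.878, 0.559 and 1.38 in Nox4 KO. Its mean stayed below 1 RPKM in both groups, and the exact permutation p was 0.2. Tbx4, the other hindlimb gene, was here the one without overlap, at 0.0649, 0.0546 and 0.111 RPKM in WT and 0.226, 0.188 and 0.230 in Nox4 KO. These values rest on 7 to 14 reads against 28 to 33. Its exact permutation p was 0.1, the smallest possible. In the fit with edgeR's own filter its log2 value was 1.49 (SE 0.36, unadjusted p = 0.00444, adjusted p = 0.863), and that of Pitx1 was 1.04 (SE 0.43, adjusted p = 0.863). Tbx4 was the single gene of the 9 higher without overlap, against 4.31% of the genes passing that filter. None of the 6 genes tested at 1 RPKM passed, with log2 values from -0.16 (Emx2) to 0.18 (Tbx3), and 0% of all 10439 genes passed edgeR's test, although 337 had an unadjusted p under 0.05 and DESeq2 had 16 at an adjusted p under 0.05.

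**Figure D3:**
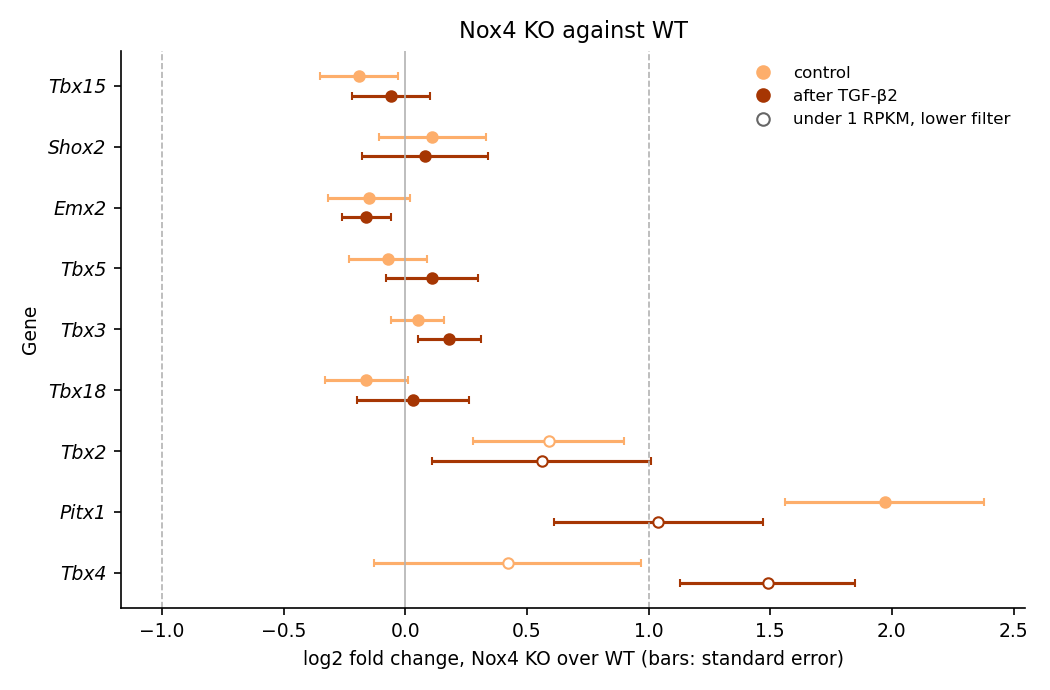
Log2 fold change of Nox4 KO over WT for each gene, in control and after TGF-β2, with bars of 1 standard error, dashed lines at a 2-fold change and open points for genes under 1 RPKM. Pitx1 is at 1.97 in control and 1.04 after TGF-β2, Tbx4 at 0.42 and 1.49, and the 6 more abundant genes lie between -0.19 and 0.18.

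The response to TGF-β2 did not differ detectably between the genotypes for any of the 7 genes in the interaction test over all 12 libraries, where 0% of 10890 genes passed and 292 had an unadjusted p under 0.05, and where DESeq2 had 6 at an adjusted p under 0.05. The interaction was -0.92 for Pitx1 (SE 0.64, adjusted p = 0.854), the widest of the 7. Between same-numbered Nox4 KO libraries, the Pitx1 log2 change was -0.61, -0.70 and 0.02. For Tbx5 the interaction was 0.18 (SE 0.25), for Shox2 -0.04 (SE 0.36) and for Tbx15 0.13 (SE 0.25). With edgeR's own filter, Tbx4 had an interaction of 1.07 (SE 0.68, adjusted p = 0.914).

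The order of the libraries within a group was often shared between control and TGF-β2. In Nox4 KO, 7 of the 9 genes had the same order of the 3 numbers in control and with TGF-β2, and all 9 had the same number lowest. In WT, 5 of 9 had the same order. Shox2 was lowest and Tbx18 highest in replicate 3 of all 4 groups. Nox4 KO replicate 3 was lowest for Tbx3, Tbx15, Emx2 and Shox2, and highest for Pitx1, Tbx4, Tbx5 and Tbx18, in both conditions. Between same-numbered Nox4 KO libraries the Shox2 log2 change was -0.91, -0.99 and -1.05, and that of Tbx5 was -1.07, -1.31 and -1.13. The coefficient of variation in Nox4 KO control was 25.0% for Shox2, 25.1% for Tbx18 and 2.79% for Tbx3.

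**Figure D4:**
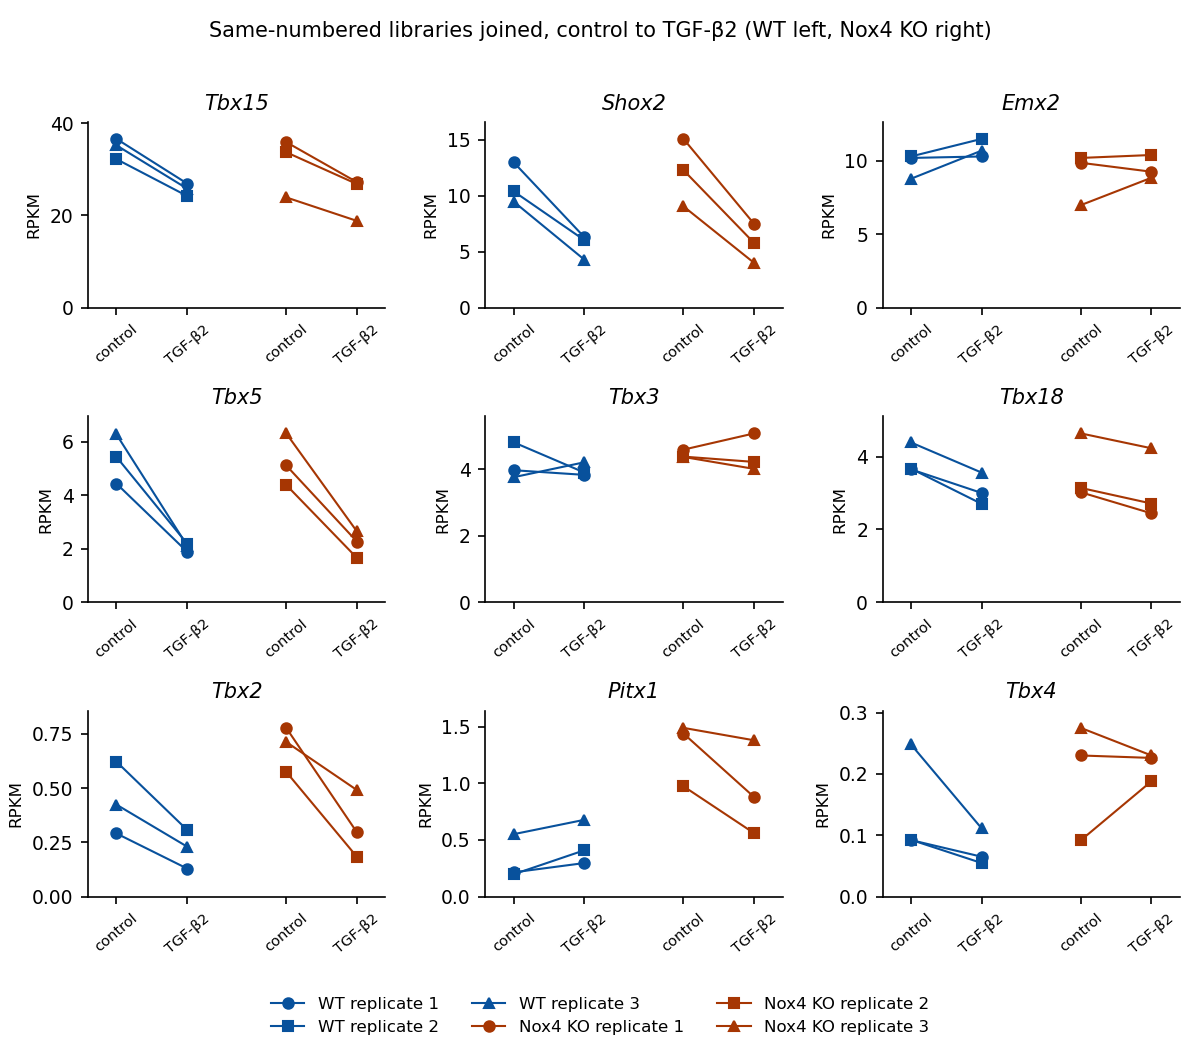
RPKM of each gene with same-numbered control and TGF-β2 libraries joined by a line, WT on the left and Nox4 KO on the right of each panel, on axes that start at 0. In WT a line joins a number only, since the numbers were not shown to pair libraries. The Shox2 lines all run downwards, with replicate 3 lowest in all 4 groups, and those of Tbx18 have replicate 3 highest.

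Related regulators were examined as lists. Of 11 other T-box genes in the table, most were at or near 0, and 1 was tested in WT and 2 in Nox4 KO. In Nox4 KO 1 of the 2 was called lower, against 4.58% of all genes tested. This was Tbx1, the pharyngeal T-box gene, at 0.818 to 1.32 RPKM in control and 0.3 to 0.505 with TGF-β2 (log2 -1.28, SE 0.28, adjusted p = 0.0205, edgeR). Tbx1 passed the filter there only through the control group, where it was higher. In WT the Tbx1 mean was 0.529 RPKM in control and 0.4 with TGF-β2, under the filter, so it was not tested in that genotype. Of 14 other Pitx and paired-type homeobox genes, 3 were tested, and 2 of them were called lower in both genotypes, against 5.09% of all genes tested in WT and 4.58% in Nox4 KO. These were Prrx1 and Prrx2, genes of limb and craniofacial mesenchyme. Prrx1 went from 39.8 to 46.1 RPKM down to 12.2 to 16.1 in WT (log2 -1.52, SE 0.14, adjusted p = 0.00108, edgeR), and its log2 value in Nox4 KO was -1.42 (SE 0.06). Prrx2 had log2 values of -1.16 (SE 0.20) in WT and -1.30 (SE 0.09) in Nox4 KO.

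Of 40 other positional transcription factors, 20 were tested in WT and 21 in Nox4 KO. In WT 1 was called higher, against 2.62% of all genes tested, and 1 lower, against 5.09%. At any fold change 3 were higher in WT, against 10.4% of all, and 4 lower, against 12.2%. In Nox4 KO none was called, where 2.22% of all genes were called higher and 4.58% lower. At any fold change 2 were higher there, against 15.1% of all, and 4 lower, against 14.9%. The one called higher in WT was the forkhead gene Foxc2, which went from 2.59 to 3.59 RPKM up to 5.86 to 6.91 (log2 1.07, SE 0.17, adjusted p = 0.00619, edgeR). In Nox4 KO, Foxc2 had a log2 value of 0.97 (SE 0.40, adjusted p = 0.116, edgeR). Of 8 known targets of the 9 regulators, 4 were tested and 1 was called lower in both genotypes, against 5.09% of all genes tested in WT and 4.58% in Nox4 KO. This was Fgf10, a limb growth factor gene that Tbx5 is known to activate, which went from 9.61 to 13.4 RPKM down to 0.352 to 0.909 in WT (log2 -4.07, SE 0.34, adjusted p = 0.000889, edgeR). In Nox4 KO it went from 12.3 to 25.8 down to 0.572 to 2.69 (log2 -3.74, SE 0.63, adjusted p = 0.0101, edgeR). No gene of these lists was called between the genotypes or in the interaction. The median log2 value of the members tested was -0.35 in WT and -0.28 in Nox4 KO, beside 0.00 and -0.01 for all genes tested.

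Pitx1, Tbx2 and Tbx4 each spanned at least 2 on the log2 CPM scale (no pseudocount) over the 12 libraries, at 2.84, 2.46 and 2.19, while the other 6 genes spanned 0.55 to 1.83. The genes nearest to each of the 3 were found by the root mean square difference in log2 CPM, centred on the mean of the gene over the 12 libraries. Among the 3 genes nearest to Pitx1 were Hoxa11 (0.52) and Scx (0.55), where the median over 10889 genes was 0.93. Hoxa11 encodes a homeobox factor of the limb, and Scx encodes a tendon factor. As both were picked for likeness to Pitx1 over these libraries, a higher mean in Nox4 KO control than in WT control follows from the choice. The means were 1.47 against 0.423 RPKM for Hoxa11, without overlap, and 14.0 against 4.88 for Scx. The Scx ranges overlapped, at 6.34 to 24.1 in Nox4 KO control and 3.22 to 7.43 in WT control. Nearest to Tbx2 were Atp6v0e2 (0.26), Hs3st3b1 (0.27) and Dlk1 (0.29), with a median over all genes of 0.72. Nearest to Tbx4 were Plagl1 (0.40), Hyal1 (0.41) and Tnfrsf18 (0.41), with a median of 0.68. These are descriptions over libraries that share groups and replicate numbers, and Tbx2 and Tbx4 rest on few reads.

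**Figure D5:**
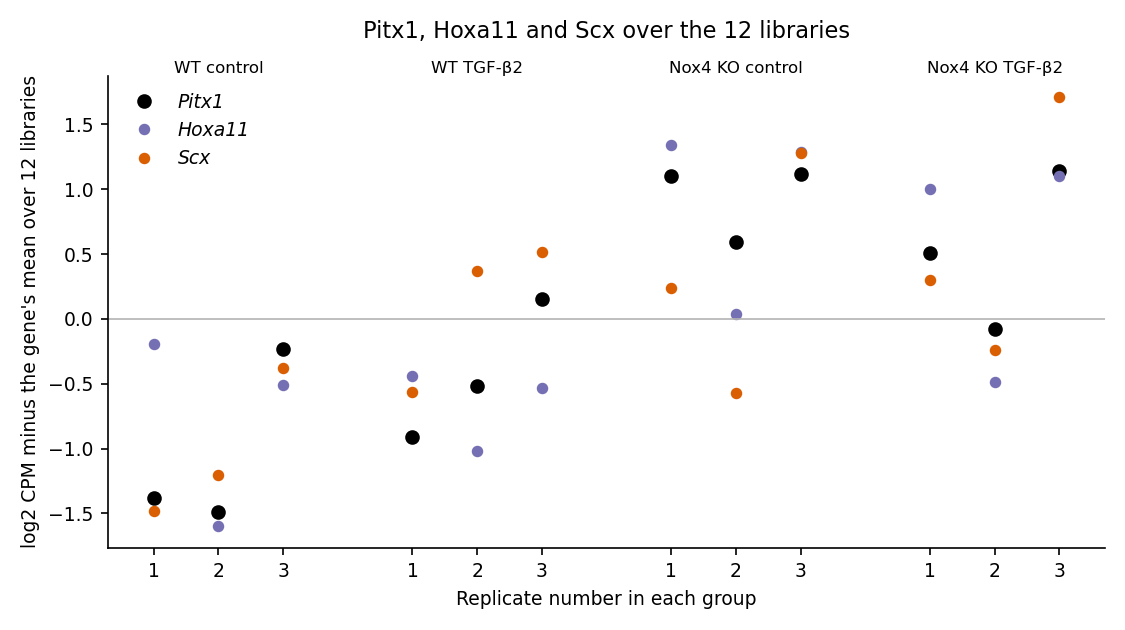
Log2 CPM of Pitx1, Hoxa11 and Scx in each library, minus the mean of the gene over the 12 libraries, by group and replicate number. Pitx1 runs from -1.49 in WT control replicate 2 to 1.14 in Nox4 KO TGF-β2 replicate 3, where Scx is at 1.71.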

How the data were processed

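RNA of 12 libraries was measured in 4 groups of 3, taken from the labels. Single-end reads were aligned by the authors (STAR 2.4, GRCm38). Multi-mapping reads were dropped, the remainder was assigned with featureCounts 1.4.6 to merged exons of protein-coding isoforms, and the authors deposited raw counts per gene, without normalization. Use of the strand is not given in the sources used here.

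All other values were computed from these counts. Symbols, positions and exon lengths came from GENCODE M21, matched by Ensembl identifier for all 21556 genes, and lengths were of protein-coding exons for 21099 genes and of all exons for 457. RPKM used the total count of the library. Comparisons were fitted with edgeR 4.0.16 (quasi-likelihood test, TMM, R 4.3.3, limma 3.58.1) on their own 6 libraries, and the interaction on 12. Genes with a mean of at least 1 RPKM in at least 1 group were tested, with Benjamini-Hochberg adjustment over all of them, and a call needed an adjusted p under 0.05 and, except for the interaction, a change of at least 2-fold. The standard error was derived from the F statistic. DESeq2 1.42.0 was an alternative, and the others were RLE and upper-quartile normalization, edgeR's filterByExpr, no filter, any fold change, 1 fit of all 12 libraries, the replicate number as a block, and leaving out each library in turn. Library totals over all genes were added after seeing the data. Genes under the filter were compared on log2(CPM + 0.5) by an exact permutation test, two-sided. The edgeR procedure was tested on simulated data.

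Named genes were the 9 members, genes of the lists that were called in any comparison (at most the 6 largest changes per list and comparison), Nox4, and, for members spanning at least 2 in log2 CPM over the libraries, the 3 genes with the smallest root mean square difference, computed with a pseudocount of 0.1. Rsrc1, the gene ratios and the promoters printed were chosen after their values were seen. Some genes that this rule names are not reported here. The members and lists were chosen with earlier results of these data known.

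Between replicates of a group the chi-square statistic was 15.1 to 154 per gene, above that of sampling alone. Same-numbered control and TGF-β2 libraries of Nox4 KO moved together around the group means (r = 0.771, 0.685 and 0.748 over 10890 genes). The Nox4 KO pairing comes from this check, since no label states it.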

Additional observations from a re-analysis of the deposited data

How the results depend on the processing

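The count of the 9 genes called with TGF-β2, 1 in each genotype, became 3 in WT and 2 in Nox4 KO at any fold change, and 2 in Nox4 KO with upper-quartile normalization and with the replicate block. Leaving out 1 library gave 1 to 2 in either genotype, and 2 came without WT control replicate 3, WT TGF-β2 replicate 1, Nox4 KO control replicate 3 or Nox4 KO TGF-β2 replicate 1. Where the count was 2, the gene added was Shox2, whose change lies at the fold limit, and where it was 3, also Tbx15. Over all genes, 282 were higher and 547 lower in WT. At any fold change these were 1117 and 1308, and the lower genes were 833 with filterByExpr and 868 without a filter, where more genes were tested. In Nox4 KO, 240 were higher and 495 lower, against 1637 and 1606 at any fold change. Leaving out 1 library gave 234 to 301 higher and 419 to 586 lower in WT, and 154 to 290 higher and 288 to 602 lower in Nox4 KO, with the lowest Nox4 KO counts without Nox4 KO TGF-β2 replicate 2. The library totals over all genes gave 292 higher and 533 lower in WT, 240 and 495 in Nox4 KO, and the same calls among the 9 genes. Between the genotypes, DESeq2 called 5 genes higher and 1 lower both in control, with Pitx1 among them as 1 of the 9 genes, and after TGF-β2, and in the interaction 6 lower, where edgeR called 0. In control the fit of all 12 libraries called 1 higher, and leaving out a library called 0 to 1 lower. After TGF-β2 leaving out a library called 0 to 1 higher. The cause of these differences was not tested. The exact tests of genes under the filter reached their smallest p in 2 of 10 cases with either pseudocount.

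For single genes, of 533 values under an alternative, 488 kept their direction and side of the threshold, 12 lost the threshold, 2 gained it and 31 changed sign. Those that lost it were Tbx15 in WT (also in the fit of all 12 libraries) and Shox2 in both genotypes, when single libraries were left out, and those that gained it were Tbx15 in Nox4 KO with the replicate block and Pitx1 in control with DESeq2. The values that changed sign were close to 0, did not pass the test and, except for Tbx3 in WT without a filter (0.00), came from leaving out 1 library. With TGF-β2 these ranged from -0.10 to 0.11 for Tbx3 in WT and in Nox4 KO from -0.03 to 0.16 for Tbx3, -0.39 to 0.09 for Tbx18 and -0.00 to 0.27 for Emx2. Between genotypes in control they ranged from -0.04 to 0.17 for Tbx3, -0.20 to 0.04 for Tbx5, -0.26 to 0.02 for Emx2 and -0.08 to 0.29 for Shox2, and after TGF-β2 from -0.04 to 0.27 for Tbx5, -0.15 to 0.10 for Tbx15, -0.24 to 0.18 for Tbx18 and -0.16 to 0.29 for Shox2. In the interaction they ranged from -0.05 to 0.29 for Tbx15, -0.08 to 0.38 for Tbx18, -0.20 to 0.10 for Emx2 and -0.27 to 0.17 for Shox2. Among the 9 genes the replicate block changed the call of Shox2 in Nox4 KO and moved Tbx15 there past the adjusted p threshold, short of 2-fold, and changed no other call. Same-numbered WT libraries correlated at 0.073, 0.437 and 0.532 in their deviations, and those of different genotype at -0.179 to 0.289, so no pairing was taken there, and the block gave 293 higher and 632 lower genes in WT, with Tbx5 again called, and 0 calls between genotypes. Depth limits Tbx4, Pitx1 and Tbx2, which had as few as 7, 20 and 19 reads.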
